A study of Mus musculus with 9 samples.

Results

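The E2F and DP transcription factors were examined for BAP1 binding in Ba/F3 cells, a mouse line of B cell lineage precursors that is grown with IL-3. The 10 genes were taken by name from the GENCODE M1 annotation of the mm9 genome, out of 37273 annotated genes, of which 22367 are protein-coding. They were the 3 genes classed as activators (E2f1, E2f2 and E2f3), the 5 classed as repressors (E2f4, E2f5, E2f6, E2f7 and E2f8) and the 2 DP partners (Tfdp1 and Tfdp2). BAP1 is a deubiquitinase that removes ubiquitin from histone H2A.

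BAP1 was mapped by ChIP-Seq, in which fixed chromatin is sheared and the DNA held by a protein is recovered with an antibody and sequenced. The series has 9 samples. The 2 behind the deposited peaks were wild type Ba/F3 cells with an anti-BAP1 antibody and Ba/F3 cells that stably express triple-FLAG-tagged murine BAP1 with an anti-FLAG antibody. The remaining samples, which were 4 input DNA samples and 3 immunoprecipitated for H2AK119ub (from wild type cells and from Bap1 knockout clones), were not analysed here. The FLAG-tagged line was kept under puromycin and expresses the tagged BAP1 from a transgene. Both immunoprecipitations were listed together and each was sequenced once, so a peak has no replicate error and cannot be assigned to one antibody. The list has 13164 peaks of 200 bp with no height or p-value, and it does not give sequencing depth. It holds no expression values, so the identity of the cells could not be checked against B lineage markers.

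E2F proteins bind DNA at the promoters of genes for DNA replication and cell cycle entry, and most of them do so as a pair with a DP protein. The retinoblastoma (pocket) proteins hold E2Fs in check in resting cells, and phosphorylation by cyclin-dependent kinases in G1 phase releases them. E2F1, E2F2 and E2F3 are known mainly as activators, E2F4 and E2F5 as repressors that work with pocket proteins, E2F6 as a repressor joined to a Polycomb complex, and E2F7 and E2F8 as atypical repressors that bind without a DP partner. Proliferating B cell precursors are among the cells in which this network is active.

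The DNA under several of these peaks is shown first, because some of it carries the words that E2F, NF-Y and the MuvB complex are known to read. The 2 E2f3 peaks and the intronic E2f2 peak are shown beside them. Each sequence runs 5′ to 3′ along the gene on build NCBIM37 (mm9) and is limited to the longest part of the peak outside annotated untranslated exons. Capitals mark the E2F words TTTCCCGC, TTTCGCGC, TTTGCCGC and TTTGGCGC, the NF-Y word CCAAT and the CHR word TTTGAA, each on either strand.
E2f8, peak at 36 bp, minus strand, chr7:56136967-56137030: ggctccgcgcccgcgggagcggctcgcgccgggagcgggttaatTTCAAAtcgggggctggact
Tfdp1, peak at -67 bp, plus strand, chr8:13338585-13338750: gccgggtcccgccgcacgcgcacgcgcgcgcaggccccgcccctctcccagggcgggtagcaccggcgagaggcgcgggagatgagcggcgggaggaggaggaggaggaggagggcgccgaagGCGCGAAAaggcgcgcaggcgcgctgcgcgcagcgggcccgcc
E2f7, peak at -57 bp, plus strand, chr10:110182339-110182494: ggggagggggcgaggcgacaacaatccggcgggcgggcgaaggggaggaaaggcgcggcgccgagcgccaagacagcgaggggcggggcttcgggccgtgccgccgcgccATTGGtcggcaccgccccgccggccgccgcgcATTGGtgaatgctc
Tfdp2, peak at -106 bp, plus strand, chr9:96096489-96096688: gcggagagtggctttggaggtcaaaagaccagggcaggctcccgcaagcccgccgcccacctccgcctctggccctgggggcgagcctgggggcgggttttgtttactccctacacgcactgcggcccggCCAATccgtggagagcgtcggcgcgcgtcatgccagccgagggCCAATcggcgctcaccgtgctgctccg
E2f3, peak at -669 bp, minus strand, chr13:30078107-30078306: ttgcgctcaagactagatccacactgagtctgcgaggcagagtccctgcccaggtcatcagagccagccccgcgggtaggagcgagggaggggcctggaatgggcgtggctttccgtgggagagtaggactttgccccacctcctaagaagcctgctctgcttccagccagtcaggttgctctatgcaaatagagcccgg
E2f3, peak at -283 bp, minus strand, chr13:30076272-30076471: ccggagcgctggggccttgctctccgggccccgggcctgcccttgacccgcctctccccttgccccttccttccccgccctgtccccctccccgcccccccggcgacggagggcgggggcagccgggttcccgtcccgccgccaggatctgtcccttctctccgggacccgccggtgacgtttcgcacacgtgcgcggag
E2f2, peak in intron 1, plus strand, chr4:135730818-135731017: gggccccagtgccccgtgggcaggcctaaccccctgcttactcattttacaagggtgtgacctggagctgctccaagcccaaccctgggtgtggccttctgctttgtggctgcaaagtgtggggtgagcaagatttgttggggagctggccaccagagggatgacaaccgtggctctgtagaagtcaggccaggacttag
Of the sequences shown, only the Tfdp1 peak at -67 bp holds an E2F word, and only the E2f8 peak at 36 bp holds the CHR word. The E2f7 and Tfdp2 peaks each hold the CCAAT word at 2 places, and both E2f3 peaks and the E2f2 peak hold none of the marked words. That is not particular to them. None of these words is in the peaks of E2f4, E2f5 and E2f6 or in the E2f1 peak at -65 bp either, whose sequences are not shown.

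A gene-proximal peak, with its middle within 1 kb of an annotated transcription start site (TSS) of the gene, was present at 9 of the 10 genes (90.0%, 95% Wilson interval 59.6 to 98.2, which covers counting error only). E2f2, an activator, was the exception. A gene-proximal peak was present at 39.6% of protein-coding genes and at 26.2% of all annotated genes. By role, the genes with a gene-proximal peak were 2 of 3 activators, 5 of 5 repressors and 2 of 2 DP partners. No test was run on this contrast, since the genes are not replicates of a class. The 9 bound genes had 13 gene-proximal peaks in all, of which 12 had their middle upstream of the nearest own TSS and 9 covered a TSS of the gene. E2f1, E2f3, E2f5 and E2f8 had more than one, or 4 of the 9 genes, against 25.5% of all protein-coding genes with a gene-proximal peak. When peaks within 500 bp were merged, an alternative added after seeing the data, E2f3 was the 1 member left with more than one, against 5.84%.

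**Figure D1:**
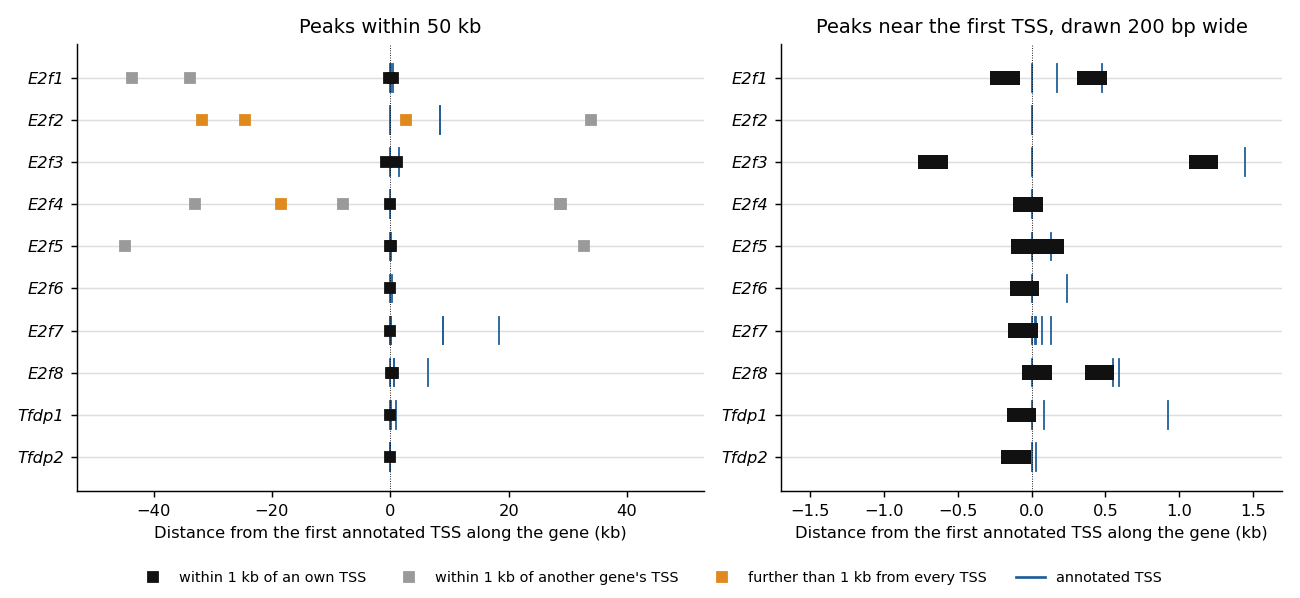
BAP1 peaks around the 10 genes, with 1 row per gene and distance from its first annotated TSS in kb along the gene, within 50 kb (left) and near the TSS, where each peak is drawn 200 bp wide (right). Black squares or bars lie within 1 kb of an own TSS, gray within 1 kb of another gene's TSS and orange further than 1 kb from every TSS, and blue ticks are TSSs. E2f2 has no black mark and 3 orange ones.

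**Figure D2:**
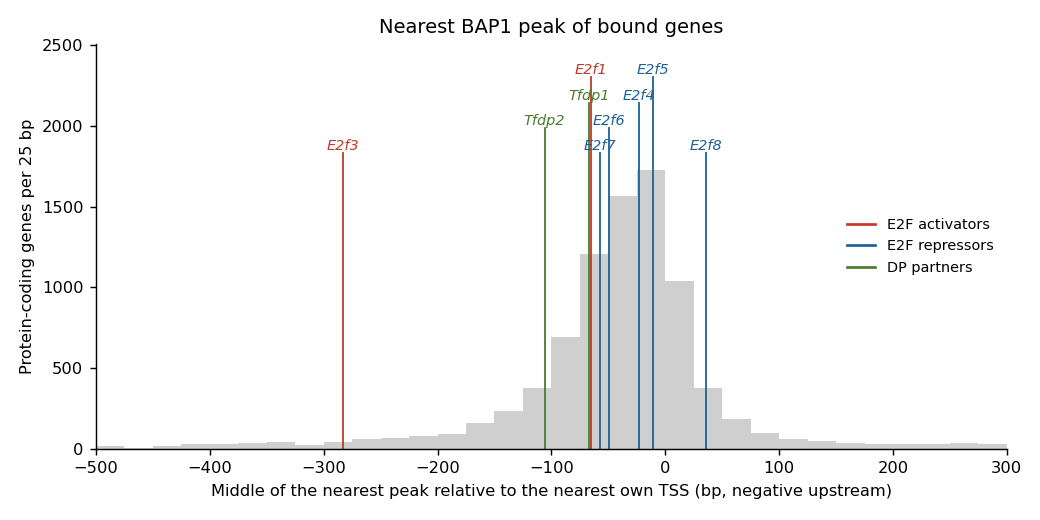
Middle of the nearest peak relative to the nearest own TSS in bp (negative is upstream), as a histogram over the 8850 protein-coding genes with a gene-proximal peak in bins of 25 bp, cut at -500 and 300 bp. Lines mark the 9 bound members, colored by role. All but E2f3 at -283 bp and Tfdp2 at -106 bp lie within 100 bp of a TSS.

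Among the activators, E2f1, the best known driver of entry into S phase, spans 154385143 to 154395628 of chromosome 2 (minus strand) and has 3 annotated TSSs. Its first peak, chr2:154395710-154395909, lay outside the gene with its middle at -181 bp from the most upstream TSS. Its second peak, chr2:154395119-154395318, lay 65 bp upstream of the most downstream TSS and 410 bp inside the longest transcript, in intron 1 of that transcript and in the untranslated first exon of another. The RefSeq start of E2f1, found by matching its promoter sequence to mm9, was 9 bp upstream of that downstream TSS, and the second peak was then at -56 bp. The middles of the peaks were 591 bp apart, one on each side of the stretch that holds the upstream pair of TSSs.

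E2f3 encodes a full-length protein and a shorter one from a promoter inside the gene. It spans 29998444 to 30077537 of chromosome 13 (minus strand), and its 2 annotated TSSs each had a peak of their own. The peak of the upstream promoter, chr13:30078107-30078306, was at -669 bp, and that of the internal promoter, chr13:30076272-30076471, was at -283 bp, within intron 1 of the longer transcript. The middles were 1835 bp apart, and of the 13 gene-proximal member peaks these were the furthest from an own GENCODE TSS. RefSeq places both starts further upstream, by 395 and 172 bp, which puts the peaks at -274 and -111 bp. The upstream peak had the lowest GC content of the 13, 61.0%, and the lowest CpG ratio (observed over expected CpG), 0.431. The internal one had 77.0% and 0.816.

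E2f2, which activates the same kinds of targets as E2f1, spans 135728309 to 135751972 of chromosome 4 (plus strand). It had no peak within 1 kb of any of its 3 TSSs. Its nearest peak, chr4:135730818-135731017, was 2608 bp downstream of the first TSS, in intron 1. Of the 13517 protein-coding genes without a gene-proximal peak, 266 (1.97%) had a peak this near, and 5199 (38.5%) had one within 50 kb. The first cutoff is the E2f2 distance itself. The median promoter CpG ratio of these genes was 0.296, against 0.946 at E2f2, and genes of like ratio were not counted apart. The intronic E2f2 peak had 59.5% GC and a CpG ratio of 0.114, below the median of 0.34 over the 3091 gene-distal peaks. A pair of further peaks lay upstream at -24488 and -31890 bp. Both were nearer to Id3, an inhibitor of basic helix-loop-helix factors, at 2932 and 2993 bp from the nearest of its TSSs, and Id3 had no gene-proximal peak either. With the intronic peak, E2f2 thus had 3 peaks within 50 kb that were further than 1 kb from every annotated TSS. Such peaks numbered 3 or more for 131 protein-coding genes without a gene-proximal peak, or 0.969%, a count chosen after the E2f2 values were seen. The fourth peak in reach, at 25466 bp from the nearest E2f2 TSS, was 93 bp from the TSS of Asap3, a neighboring gene.

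The repressors that work with pocket proteins are E2f4 and E2f5. E2f4 spans 107821563 to 107829269 of chromosome 8 (plus strand) and has 1 transcript. Its peak, chr8:107821441-107821640, covered the TSS with its middle at -23 bp. Exoc3l begins on the opposite strand, at -1565 bp from the E2f4 TSS, and the nearest peak of that gene was this same one, at -1542 bp. E2f4 had 6 peaks within 50 kb, of which 4 were gene-proximal for other genes and 1 was not near any TSS. The median over protein-coding genes with a gene-proximal peak was 3 peaks within 50 kb, with quartiles of 2 and 4. E2f5, which spans 14578671 to 14606308 of chromosome 3 (plus strand), had overlapping peaks, chr3:14578534-14578733 and chr3:14578695-14578894. Their middles were 161 bp apart, the first 38 bp upstream of the first TSS and the second 11 bp upstream of the other TSS. The second reaches into the coding part of exon 1.

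E2f6, the repressor of the Polycomb complex PRC1.6, spans 16817771 to 16833549 of chromosome 12 (plus strand). Its single peak, chr12:16817623-16817822, was at -49 bp, covered the TSS and was the only peak within 50 kb. The RefSeq start was identical to the GENCODE one.

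Among the atypical repressors, E2f7 spans 110182495 to 110224440 of chromosome 10 (plus strand) and has 9 transcripts. Its one peak, chr10:110182339-110182538, was at -57 bp from the first TSS and within 1 kb of the starts of 6 transcripts. The other 3 transcripts start further in, with the peak at -8880 to -18474 bp from them, and had none of their own. E2f8, which spans 56121799 to 56136966 of chromosome 7 (minus strand), had one peak for each of its upstream start sites. The peak chr7:56136831-56137030 was 36 bp downstream of the first TSS, and the other peak was 94 bp upstream of the next, in intron 1 of the longest transcript. They were 425 bp apart. Gm2788, a long noncoding RNA gene, starts between them on the other strand, 259 bp from an E2f8 TSS, and had both peaks within 1 kb, at -165 and 260 bp. No other member shared a gene-proximal peak with another gene.

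Both DP genes carried 1 peak. Tfdp1, which encodes the main partner of the E2Fs, spans 13338751 to 13378395 of chromosome 8 (plus strand), and its peak, chr8:13338585-13338784, was at -67 bp and covered the TSS. Tfdp2 spans 96096694 to 96224065 of chromosome 9 (plus strand). Its peak, chr9:96096489-96096688, was at -106 bp from the most upstream TSS and ended just before it. The internal starts of Tfdp2 had no peak. Both starts in the RefSeq promoter table lie inside the gene, at -548 and -5 bp from the nearest of these, with the peak at -62536 and -63079 bp. The Tfdp2 call therefore rests on the upstream GENCODE transcripts. For each DP gene this was the only peak within 50 kb.

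The nearest peak was within 57 bp of a TSS at every repressor (11 to 57 bp), whereas the activators had 65 bp (E2f1), 283 bp (E2f3) and 2608 bp (E2f2). The gap between E2f1 and the repressors did not survive a change of annotation, as the nearest peak was at -56 bp from the RefSeq start of E2f1 and at -57 bp from that of E2f7. Of the 9 bound genes, 7 had the nearest peak within 100 bp, against 77.8% of bound protein-coding genes. The median position of the nearest peak was -57.0 bp over the 9 genes and -32.0 bp over the 8850 bound protein-coding genes, whose quartiles were -73.0 and 0.00 bp.

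The promoters of the members, taken at 1 TSS per gene, were all rich in CpG. Within 500 bp on either side of the TSS, the CpG ratio ranged from 0.712 at E2f3 to 0.962 at Tfdp1, with a median of 0.862. The median was 0.771 over protein-coding genes with a gene-proximal peak and 0.296 over those without one. E2f2, at 0.946, stood above 89.8% of the bound genes and above 98.2% of the unbound ones. Of the 4393 protein-coding promoters with a ratio from 0.8 up to 1, a band that holds E2f2 and 6 of the bound members, 77.2% had a peak. E2f2 was thus among the minority of CpG-rich promoters that carried none. E2f3, E2f4 and Tfdp2 lay in the band from 0.6 up to 0.8, where 65.8% had a peak. The E2f3 value is that of its internal promoter, and the E2f1 value that of its most downstream TSS. The ratio around the upstream E2f3 TSS was not computed.

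**Figure D3:**
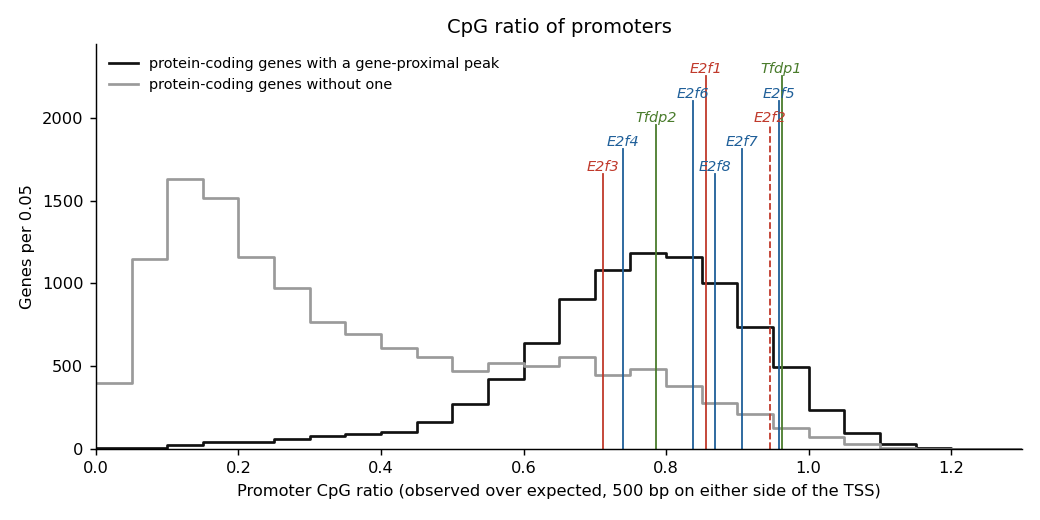
Promoter CpG ratio (observed over expected, within 500 bp on either side of the TSS), with the number of genes per bin of 0.05 for protein-coding genes with (black) and without (gray) a gene-proximal peak. Lines mark the members by role, in red for activators, blue for repressors and green for DP partners, and the dashed line is E2f2. All members, at 1 TSS per gene, lie between 0.712 and 0.962.

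The E2F genes are themselves known targets of E2F proteins, so their promoters were searched for the 4 E2F words. The distance of a word from a TSS is that of its middle. The search covered 500 bp on either side of 1 TSS per gene, the one nearest a peak, or that of the longest transcript at E2f2. It found 7 such words at 5 members. Of these, 2 lay inside a peak and 5 outside. The word TTTCGCGC at Tfdp1 was 40 bp upstream of the TSS, inside the peak. At E2f8, TTTGGCGC was inside the peak of the internal start, and TTTCCCGC lay 98 bp beyond its edge, between both peaks. E2f1 had TTTGGCGC and TTTGCCGC close to its most upstream TSS, 21 and 8 bp downstream of it, between its 2 peaks and 99 and 86 bp from the edge of the nearer one. E2f7 had TTTCCCGC at -195 bp, 35 bp outside its peak. E2f2 had TTTGGCGC 78 bp upstream of its first TSS, and the nearest peak edge was 2583 bp away. No word was found at E2f3, E2f4, E2f5, E2f6 or Tfdp2 in this window, which says only that these letters are not there. For E2f3 the window was that of the internal TSS. The upstream E2f3 TSS, 1449 bp away, lay outside it and its promoter was not searched in this way.

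Counted over peaks, 2 of the 13 gene-proximal member peaks (15.4%) held an E2F word, against 3.27% of the 10073 gene-proximal peaks in the list and 1.04% of the gene-distal ones. With 150 bp added on either side it was 5 of 13, against 7.12%. The GC-box word GGGCGG, read by SP factors, was in 11 of 13 member peaks (84.6%), against 68.6% of gene-proximal peaks. The exceptions were the E2f6 peak and the upstream peak of E2f3. E2f1 had the most, 4 and 5 in its peaks. CCAAT was present in 4 of 13 (30.8%), at E2f1, E2f7, E2f8 and Tfdp2, against 30.0%. The CHR word TTTGAA, which MuvB binds at genes of late cell cycle, was in 1 peak, 17 bp upstream of the first E2f8 TSS, against 4.58% of gene-proximal peaks. ATGGCGG, the core read by YY1, a partner of BAP1, was in 2 peaks (15.4%, against 9.13%). At E2f6 it was upstream of the TSS on the antisense strand. At E2f5 it starts at 14578820, the first coding base in the annotation, so it holds the start codon. The E2f6 peak also held the NRF1 word GCGCATGC, which spans the TSS (5.80% of gene-proximal peaks), and the Tfdp2 peak held TGTTTAC, read by FOX factors (2.09%). The ETS word CCGGAAG, present in 20.2% of gene-proximal peaks, was in 0 of 13, as were TGACGTCA (CREB, 3.35%) and ACTACAA (ZNF143, 2.92%). Both strands were searched, and no match overlapped one of another motif in these peaks. The 13 member peaks had a median GC content of 72.0% and CpG ratio of 0.974, against 67.0% and 0.876 over gene-proximal peaks. The motif shares were not set beside peaks of like composition. A match is a description of the sequence and not a measured site.

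**Figure D4:**
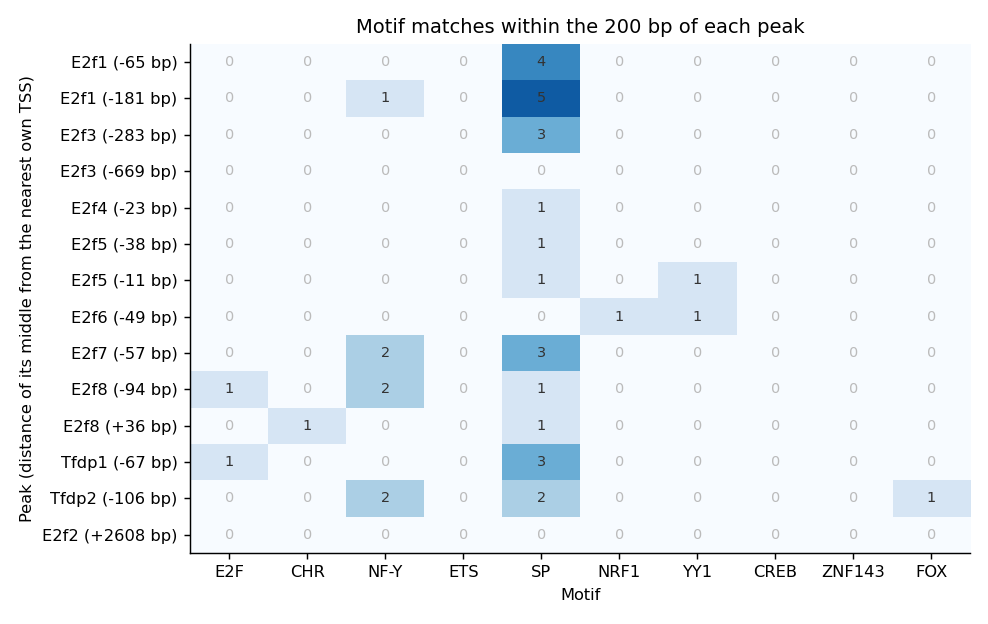
Number of matches of each of 10 motifs (columns) within the 200 bp of each of the 13 gene-proximal member peaks and of the intronic E2f2 peak (rows, labelled with the distance of the middle from the nearest own TSS). Darker blue is more matches. The SP column is filled in 11 of the 13 gene-proximal rows, and the E2f2 row is 0 throughout.

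The genes that act upstream and downstream of E2F were counted in the same way, in lists chosen for their known roles, to place the 10 genes among their partners. The pocket proteins were bound at 3 of 3 genes. Rb1, the retinoblastoma protein itself, had its nearest peak at -124 bp, Rbl1 at 305 bp and Rbl2 at 4 bp. Of the G1 cyclins and kinases that phosphorylate them, 6 of 8 had a gene-proximal peak, the first in the list being Ccnd2, a D-type cyclin, at -36 bp. Ccnd1, another D-type cyclin, and Cdk6, a partner of the D-type cyclins, had none. Their nearest peaks were at 23098 and -1695 bp.

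The core of MuvB, the complex that works with E2F4 and pocket proteins in resting cells, and its later partners Mybl2 and Foxm1 were bound at 7 of 7 genes, with Lin9 at -47 bp. The E2F6 complex PRC1.6 was bound at 10 of 10 genes, with Pcgf6, its defining subunit, at -57 bp. Of the textbook E2F target genes, 23 of 27 (85.2%, 95% Wilson interval 67.5 to 94.1) had a gene-proximal peak, the first being Ccna2, which encodes cyclin A2, at -87 bp. Among the exceptions were Tk1, a thymidine kinase, with its nearest peak at 6067 bp, Chek1, a checkpoint kinase, at -40738 bp, and Trp73, a relative of p53, at -2142 bp. Each of these shares stands against 39.6% of protein-coding genes, which include genes that Ba/F3 cells may not express. Expression in these cells was not analysed here, and its part in the counts was not tested. The share over protein-coding genes also moved with the promoter CpG ratio, from 3.89% below 0.4 to 77.2% from 0.8 up to 1. The lists were not set beside promoters of like CpG ratio.

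**Figure D5:**
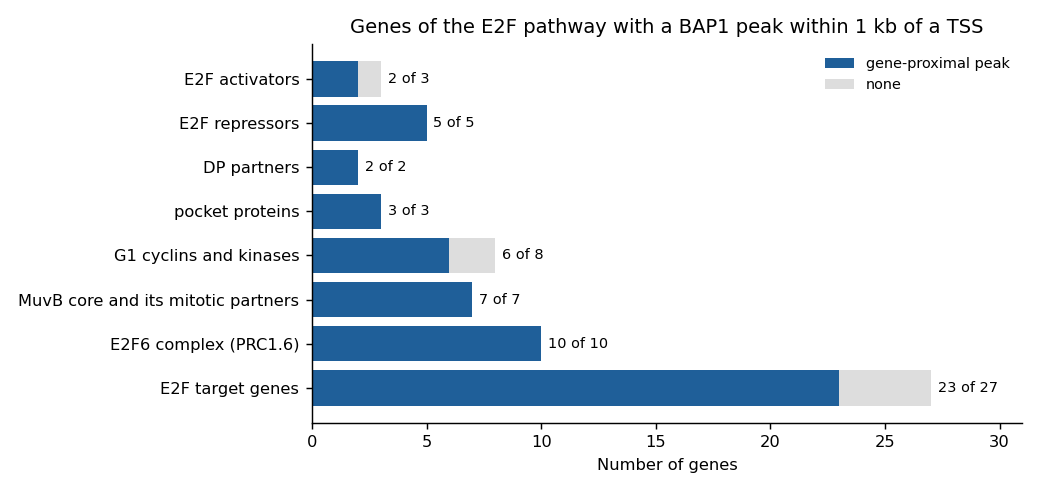
Number of genes with (blue) and without (gray) a BAP1 peak within 1 kb of a TSS in each list of the E2F pathway, with the count beside each bar. The activators lack 1 gene, the G1 cyclins and kinases 2 and the E2F target genes 4, and the other lists are complete.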

How the data were processed

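Peaks were taken from the 1 list the authors deposited for the anti-BAP1 and anti-FLAG immunoprecipitations together. The authors used Bowtie 1.0.0 to map reads to mm9. MACS, in version 1.4.2 per the submitters' processing notes, then found peaks relative to sequenced input DNA. The deposited values are other than a count or signal, namely start and end positions in bp. The peak threshold and the rule that joined both samples are not given in the sources used here. A stricter threshold would list fewer peaks and could lower the counts of bound genes, which was not tested because the list has no scores. Only peaks on 21 chromosomes are listed, and genes elsewhere were left out.

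The middle of each peak (start plus 100 bp) was compared with every TSS of GENCODE M1 (NCBIM37, the same build), and distances are signed along the gene. A peak was gene-proximal within 1 kb, and the nearest peak was sought up to 50 kb. The CpG ratio is the number of CpG times the length over the product of C and G counts, at the TSS nearest the peak, or of the longest transcript where there was none. E2F words at promoters were searched around the same TSS. RefSeq starts came from promoter sequences of build GRCm38, matched exactly to mm9, for 8 members. The table used held none for E2f4 and E2f5. No statistical test was run, and members and lists were chosen with earlier results of these data known. The genes named are the 10 members, each gene that shares a gene-proximal peak with one, each list gene without a peak, and the first listed gene with one. Of these, 1 list gene is not reported here, and sequences are shown for a selection of peaks. Asap3, Exoc3l, Id3, Rbl1, Rbl2, Mybl2 and Foxm1 were named beyond this rule after their values were seen. Alternatives were the peak edge, windows of 500 bp, 2 kb and 5 kb, protein-coding transcripts, 1 TSS per gene and merging within 500 bp. RefSeq starts, and merging for the genes with more than one peak, were added after seeing the data. The scripts, in Python 3.11.15 with pandas 2.3.3 and pysam 0.24.0, were tested on simulated data against bedtools 2.31.1.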

Additional observations from a re-analysis of the deposited data

How the results depend on the processing

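The count of 9 of 10 members was the same with the peak edge, windows of 500 bp and 2 kb, protein-coding transcripts, 1 TSS per gene and merged peaks, and E2f2 was the gene without a peak in each. With a window of 5 kb the count was 10 of 10, since the intronic E2f2 peak then entered. The count of E2F target genes ranged from 22, with a window of 500 bp, to 25, with 5 kb. The share of protein-coding genes with a gene-proximal peak was 38.6, 40.4 and 42.5% with windows of 500 bp, 2 kb and 5 kb, and 37.6% with 1 TSS per gene. Member peaks with an E2F word rose from 2 of 13, against 3.27% of gene-proximal peaks, to 5, against 7.12%, with 150 bp added on either side. With shorter E2F words the count was again 2 of 13 (15.4%), but against a larger 7.42%. The shorter words with 150 bp added gave 6 of 13, against 16.1%. Merging, added after seeing the data, left E2f3 as the 1 member with more than one gene-proximal peak, against 5.84% of bound protein-coding genes. Of 48 recomputed member distances, 41 moved by less than 100 bp. The others were E2f1 at -181 and E2f3 at -669 bp with 1 TSS per gene, E2f8 at 249 bp after merging, Tfdp2 at -6 bp from the peak edge, and, from RefSeq starts, E2f2 at 2728, E2f3 at -111 and Tfdp2 at -62536 bp. No paired analysis was possible because the 1 peak list pools both samples and no result comes from a test. For the same reason no sample could be left out. Without heights or depths, an absent peak says only that none was called at this threshold.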

Other observations

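The promoters of protein-coding genes were split by their E2F words, and a gene-proximal peak was found for 38.3% of those with 0 E2F words within 250 bp of the TSS, 65.5% for 1 word, 76.1% for 2 (35 of 46 genes) and 100% for 3 or more (7 of 7 genes). CpG content moved with this share too, which was 3.89% below a CpG ratio of 0.4 and 77.2% from 0.8 up to 1. Within that last band it was 83.9% of 367 promoters with an E2F word and 76.6% of 4026 without. E2f2 is 1 of the 59 genes of this band with a word and no peak. Genes are not replicates, and these shares describe the list. The TSS used was the one nearest the peak for genes with a gene-proximal peak, and that of the longest transcript for the rest. The promoter examined, for words and for CpG ratio, thus depended on the outcome counted.

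Within the 10073 gene-proximal peaks, the E2F words were spread over the interval. In bins of 10 bp their number ranged from 9, in the bin centered at -25 bp from the peak middle along the plus strand of the chromosome, to 26, in the bin at 15 bp, and the outermost bins held 17 and 11.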
